A study of Mus musculus with 10 samples.

Results

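The fatty acid elongases and desaturases described here are 10 genes chosen by symbol, Elovl1, Elovl4, Elovl5, Elovl6, Elovl7, Fads1, Fads2, Fads3, Scd1 and Scd2, out of 52636 gene identifiers counted. All 10 were found in the table, and 9 had enough reads to be tested. Elovl4, with between 4 and 13 reads in a library, was left out by the filter on low counts. Gene counts came from bulk RNA of inguinal white fat, which lies under the skin, taken from C57BL/6 mice aged 6 months. All animals carried floxed alleles of Tcf7l2, a transcription factor of Wnt signalling, and ate a 65% high-fat diet, for 16 weeks by the diet label, 12 weeks by the sample descriptions and 4 months by the treatment protocol. The 5 control libraries are labelled wild type and came from floxed mice without Cre. The 5 knockout libraries came from floxed mice that also carried Adp-Cre, and their genotype label names an adipose knockout of Tcf7l2. A group with Cre and no floxed allele is not among the samples, and no label states that each library is a separate mouse. Otherwise the p-values reflect spread among these samples alone, which may be technical.

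Elongases add carbon pairs to the acyl-CoA chain in the endoplasmic reticulum, and desaturases place double bonds in it with electrons that pass through cytochrome b5. Elovl6 lengthens palmitate to stearate and Scd1 turns stearate into oleate, the main monounsaturated acid stored in fat. Fads2, Elovl5 and Fads1 act in turn on the dietary polyunsaturated acids to make arachidonic and related acids, and Elovl1, Elovl4 and Elovl7 build very long chains. The SREBP and LXR transcription factors are known regulators of Scd1, Elovl6 and the Fads genes in liver and fat.

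In knockout fat, Elovl5 rose to 1.25 times and Fads3 to 1.18 times the control level, and the 5 knockout libraries lay above all 5 controls for each of these genes. The other 7 tested members did not pass. Among them, Scd1 and Elovl6, of the palmitate to oleate route, had fold changes below 1, and Scd2, a second stearoyl-CoA desaturase, had 1.08. Thus 2 of 9 tested members were higher and 0 were lower at an adjusted p below 0.05 in edgeR's quasi-likelihood test, while 3 of 9 had an unadjusted p below 0.05, 2 of them higher. An unadjusted p below 0.05 was reached by 31% of all tested genes, with 14.8% higher. Over all 15927 tested genes, 5.84% were higher, 7.05% lower and 12.9% changed in either direction. The members' median log2 fold change was 0.11, against 0 over all tested genes. Members whose groups did not overlap numbered 2, both higher, against 4.55% of all tested genes that lay higher without overlap, 4.45% lower and 8.99% in either direction. The members' count of 2 is too small to set them apart from the background.

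CPM is the read count scaled to a common library total, with TMM factors except in the floor given next. Each library held 14032866 to 17782073 counts, and 3 counts corresponded to 0.169 to 0.214 CPM without TMM factors. Counting error alone is covered by that floor, since PCR copies without molecular identifiers are not independent molecules. Control libraries held 9.16 to 11.4 CPM of Tcf7l2 and knockout libraries 5.57 to 6.20, so each library followed its label (log2 fold change -0.87, edgeR adjusted p = 6.1e-04). On the first principal component, control 5 at 5.99 lay inside the knockout range of 3.96 to 35.6, and knockout 1 lay at its far end. Controls carry the library numbers 1 to 5 and knockouts 6 to 10, so genotype and any handling that followed this order cannot be told apart. The sample titles also hold another number per library, and in that order the groups are mixed. Mature fat cell markers were abundant, with a summed level of 23138 to 29256 CPM in controls and 25014 to 33869 in knockouts. Of 10 such markers, 1 was higher (Lep, log2 fold change 0.48), 3 were lower (Cfd at -1.51, Retn at -0.56 and Slc2a4 at -0.55) and 6 did not pass, among them Fabp4, which alone averaged 13293 CPM in controls. The part of this in the members' values was not tested. In bulk tissue, fewer cells of a type and less RNA per cell cannot be told apart.

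The upstream sequences of the risen members Elovl5 and Fads3 are shown, with that of Elovl6. The fold change of Elovl6 was below 1 but did not pass, and its groups overlapped. These windows were chosen for the genes' values in these data, and a link of the marked words to the fold changes was not tested. Each run is the 250 bases before the RefSeq transcript start on GRCm38.p6, written 5′ to 3′ on the gene's own strand. Capitals mark matches to CCAAT, the CACGTG E-box, TCACNCCAC, which is a sterol element, and CTTTGAT or CTTTGAA, which are TCF/LEF-type words, on either strand; the words do not overlap in these windows.
Elovl5, chr9:77917115-77917364, plus strand: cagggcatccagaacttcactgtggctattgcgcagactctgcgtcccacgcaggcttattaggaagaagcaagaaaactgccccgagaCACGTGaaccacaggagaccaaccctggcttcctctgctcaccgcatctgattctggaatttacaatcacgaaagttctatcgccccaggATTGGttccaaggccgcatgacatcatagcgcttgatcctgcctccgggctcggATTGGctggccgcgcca
Fads3, chr19:10041298-10041547, plus strand: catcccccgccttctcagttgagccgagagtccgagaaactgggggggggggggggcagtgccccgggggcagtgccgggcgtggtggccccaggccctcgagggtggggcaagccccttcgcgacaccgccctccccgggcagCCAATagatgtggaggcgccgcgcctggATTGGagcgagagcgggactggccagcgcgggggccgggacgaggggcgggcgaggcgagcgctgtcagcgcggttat
Elovl6, chr3:129532136-129532385, plus strand: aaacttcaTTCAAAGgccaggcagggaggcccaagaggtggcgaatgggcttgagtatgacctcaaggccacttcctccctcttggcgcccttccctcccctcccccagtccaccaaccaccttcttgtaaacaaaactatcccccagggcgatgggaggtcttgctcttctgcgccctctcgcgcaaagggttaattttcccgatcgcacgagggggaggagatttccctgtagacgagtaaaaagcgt

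Of the 10 members, 7 had a window in the RefSeq table, Elovl1 with 2 of them, and Fads1, Scd1 and Scd2 had none. Elovl5 and Fads3 each held 2 CCAAT words, which bind the factor NF-Y. In Elovl5 these began 71 and 17 bases before the start, and in Fads3 106 and 78 bases before it. At least 2 such words stood in 10.1% of 32851 windows of this length, and at least 1 in 33.8%. Elovl1, which did not pass, held 1, 35 bases before its first start. The windows of Elovl4, Elovl6, Elovl7 and Fads2 held 0. The E-box of Elovl5 began 161 bases before its start, a word found in 6.02% of windows. CTTTGAA occurred in the Elovl6 window, 242 bases before the start, and in 4.46% of all windows. CTTTGAT, present in 3.21% of windows, and TCACNCCAC, present in 1.05%, were in 0 of the 8 member windows. These matches describe letters, not binding.

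The members span a wide range of levels. Per kilobase of merged exon, Scd1 stood at 4060 ± 533 CPM in controls (SD, n = 5), rank 6 of all tested genes on that scale, and took 1.63% to 2.12% of all counts in a control library. Fads3 followed at 151 ± 5.89 and Scd2 at 94.8 ± 6.49 CPM per kilobase. Elovl5 held 32.5 ± 1.79 and Elovl1 12.7 ± 0.822, the most abundant elongases. Next came Fads1 at 6.09 ± 0.398, Elovl6 at 5.69 ± 0.849 and Fads2 at 2.09 ± 0.301. Elovl4 at 0.193 ± 0.0577 and Elovl7 at 0.166 ± 0.0538 were close to the limit of counting. The ranges of neighbours in this order were apart in each group, except those of Fads1 and Elovl6 and those of Elovl4 and Elovl7, which overlapped.

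**Figure D1:**
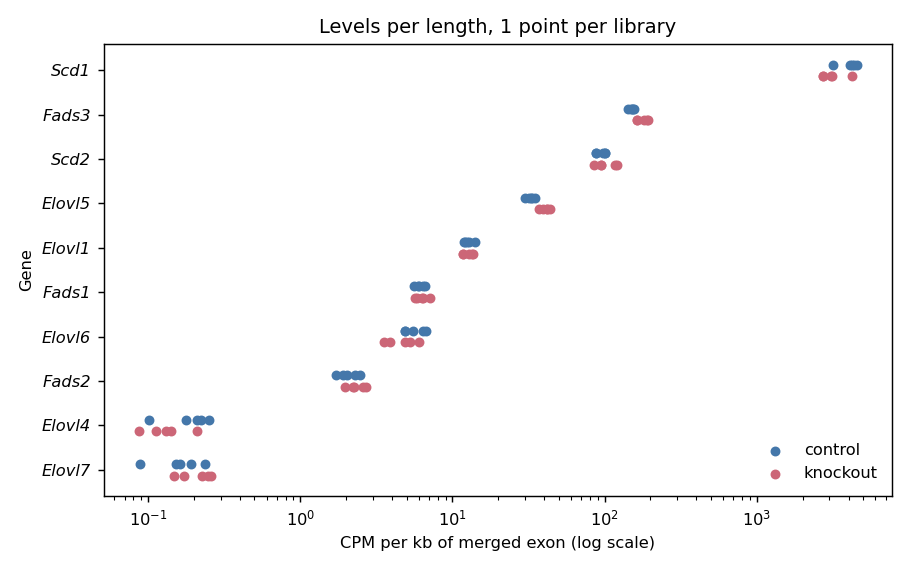
Level of each elongase and desaturase per kilobase of merged exon (log scale, horizontal), 1 point per library, controls above knockouts for each gene. Scd1 lies near 4060 CPM per kilobase in controls and Elovl4 and Elovl7 near 0.2, and the Fads1 and Elovl6 points overlap.

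Elovl5 (ENSMUSG00000032349, GRCm38 chromosome 9, 77917364 to 77984519, plus strand) encodes the elongase of polyunsaturated acyl chains. In library order 1 to 5, the controls held 118, 115, 123, 106 and 112 CPM of it, and the knockouts held 129, 148, 147, 138 and 154. The lowest knockout lay above the highest control. The means were 115 ± 6.32 and 143 ± 9.61 CPM (SD, n = 5 each), and the log2 fold change was 0.32 (SE 0.0621, 95% interval 0.19 to 0.46, edgeR adjusted p = 0.011). Whichever of the 10 libraries was omitted, the call held, with an adjusted p of at most 0.039. These values rest on 1564 to 2441 reads per library. No exonic base of the gene is shared with another annotated gene.

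Fads3 (ENSMUSG00000024664, chromosome 19, 10041569 to 10060110, plus strand) is the desaturase of the cluster that acts on the sphingoid base of ceramides. Controls, in the same order, held 537, 565, 596, 576 and 584 CPM, and knockouts held 623, 725, 681, 614 and 732. All knockouts again lay above all controls, by a gap from 596 to 614 CPM. The means of 572 ± 22.3 and 675 ± 55.1 CPM gave a log2 fold change of 0.24 (SE 0.0687, 95% interval 0.09 to 0.39, edgeR adjusted p = 0.040). That call held in 3 of 10 fits, those without control 5, knockout 1 or knockout 4, and the adjusted p rose to at most 0.110 when another library was left out. The fold change moved little, from 0.21 to 0.27, in those fits.

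The other Fads genes share the Fads3 locus. Fads2, on the opposite strand, ends 2654 bases from the end of Fads3, and Fads1 starts 81.1 kb beyond the start of Fads2. Fads2 (ENSMUSG00000024665) encodes the enzyme of the first desaturation of linoleic and linolenic acid. Its level was 8.15, 7.58, 5.66, 6.69 and 6.33 CPM in the controls and 7.30, 8.57, 6.46, 8.96 and 7.46 CPM in the knockouts. The groups overlapped, and the log2 fold change of 0.17 (95% interval -0.11 to 0.45) did not pass (edgeR adjusted p = 0.392). Fads1 (ENSMUSG00000010663), for the enzyme of the later desaturation that yields arachidonic acid, stood at 28.6, 30.7, 28.8, 31.7 and 26.8 CPM in controls. In knockouts it stood at 27.4, 30.9, 28.0, 34.4 and 30.3 CPM. Its log2 fold change was 0.04 (95% interval -0.12 to 0.20, edgeR adjusted p = 0.730). Fads3 and Fads2 transcripts share 5 stretches of 50 bases, out of 3922 in Fads3 and 3291 in Fads2.

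Scd1 (ENSMUSG00000037071, chromosome 19, 44394455 to 44407879, minus strand) had the lowest fold change of the tested members. The controls held 19871, 20636, 21257, 15438 and 22113 CPM, and the knockouts 15204, 13367, 13261, 14919 and 20651. Knockouts 1 to 4 lay below every control, and knockout 5 lay among the controls. The means were 19863 ± 2607 and 15480 ± 3022 CPM, a log2 fold change of -0.36 (SE 0.135, 95% interval -0.65 to -0.07) that did not pass over all genes (edgeR adjusted p = 0.094). Without knockout 5 the value was -0.48 and passed (adjusted p = 0.035). DESeq2, at -0.35 (adjusted p = 0.044), and limma-voom with quality weights, at -0.40 (adjusted p = 0.034), called Scd1 lower with all libraries, where they called 16.8% and 22.6% of all genes in either direction. In the other 9 fits that left out 1 library it did not pass, with an adjusted p of up to 0.210.

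Scd2 (ENSMUSG00000025203), on the plus strand 87.6 kb from Scd1, encodes a second stearoyl-CoA desaturase, best known from brain and from young animals. Its level was 482, 545, 536, 477 and 549 CPM in the controls. In the knockouts it was 516, 639, 466, 518 and 661 CPM. The knockouts spread on either side of the controls, and the log2 fold change of 0.11 (95% interval -0.10 to 0.33) did not pass (edgeR adjusted p = 0.456). Of 50-base stretches of Scd2 transcripts, 3.97% also occur in another gene, most of them in Scd1, so reads of those stretches may have been dropped or split. The same limit holds for Scd1, at 4.56% of its stretches, and for Elovl6, at 3.98%. Scd3 and Scd4 lie in the same cluster and were not tested, at 0.405 ± 0.168 and 0.363 ± 0.215 CPM in controls and 0.619 ± 0.233 and 0.363 ± 0.119 CPM in knockouts.

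Elovl6 (ENSMUSG00000041220, chromosome 3), the elongase that precedes Scd1 in the route to oleate, stood at 41.5, 31.6, 43.1, 31.5 and 35.2 CPM in the controls. In the knockouts it stood at 31.3, 33.8, 22.9, 25.0 and 38.8 CPM. Knockouts 1, 3 and 4 lay below every control, and knockouts 2 and 5 lay within the control range. The log2 fold change was -0.27 (SE 0.141, 95% interval -0.57 to 0.04, edgeR adjusted p = 0.213).

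Of the elongases of very long chains, Elovl1 and Elovl7 did not pass and Elovl4 was not tested. Elovl1 (ENSMUSG00000006390), which lengthens saturated chains for sphingolipids, stood at 38.2, 33.9, 32.5, 35.1 and 33.1 CPM in the controls and 37.0, 35.0, 36.7, 32.2 and 31.8 CPM in the knockouts. The group means were equal at 34.5 CPM, with a 95% interval of the log2 difference from -0.15 to 0.15. Elovl7 (ENSMUSG00000021696) rested on 6 to 18 reads per library. It stood at 0.357, 0.764, 0.615, 0.946 and 0.645 CPM in controls and 1.03, 0.912, 0.594, 0.996 and 0.685 CPM in knockouts (log2 fold change 0.36, 95% interval -0.26 to 0.97, edgeR adjusted p = 0.416). Elovl4 (ENSMUSG00000032262), known for the longest chains of retina and skin, stood at 0.536, 0.637, 0.307, 0.676 and 0.762 CPM in controls and 0.632, 0.426, 0.396, 0.265 and 0.342 CPM in knockouts. All 5 knockouts lay below the control median of 0.637 CPM, and the ranges overlapped.

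**Figure D2:**
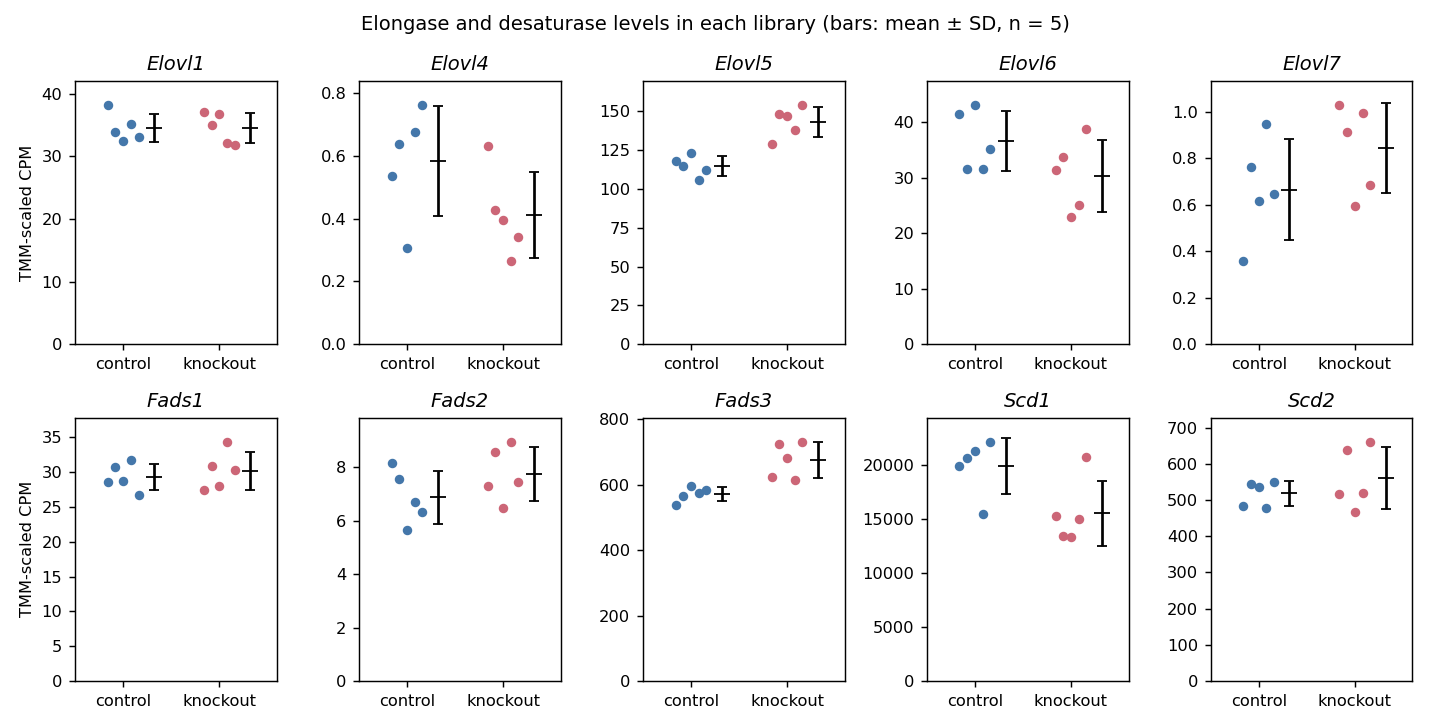
TMM-scaled CPM (vertical, from 0) of each elongase and desaturase in the 5 control and 5 knockout libraries, ordered 1 to 5 from left to right in each group, with mean ± SD beside them. The knockouts of Elovl5 (129 to 154 CPM) and Fads3 (614 to 732 CPM) lie above all controls, and knockout 5 stands apart from the other knockouts for Scd1.

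The balance between related members can be read within a library, where it does not depend on scaling. Per kilobase, the controls had Scd1 to Scd2 ratios of 46.1, 42.3, 44.3, 36.2 and 45, and the knockouts had 32.9, 23.4, 31.8, 32.2 and 34.9. The groups did not overlap, and knockout 5, whose Scd1 level was like that of the controls, also had more Scd2. The Elovl5 to Elovl6 ratio was 5.18, 6.66, 5.19, 6.13 and 5.80 in the controls and 7.55, 8.02, 11.7, 10 and 7.23 in the knockouts, again without overlap. Among 36 pairs of tested members, 4 had ratios that did not overlap between the groups, these 2 and those of Elovl5 to Scd1 and Elovl6 to Fads3. As background, the ratio to another tested gene did not overlap for 8.74% of genes with Scd1, 3.61% with Scd2, 29.5% with Elovl5, 7.23% with Elovl6 and 16.3% with Fads3. For the members with no such pair it did not overlap for 5.92% of genes with Elovl1, 2.38% with Elovl7, 5.56% with Fads1 and 5.57% with Fads2. No test was made on these ratios, since the members were chosen with earlier results of these data known.

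**Figure D3:**
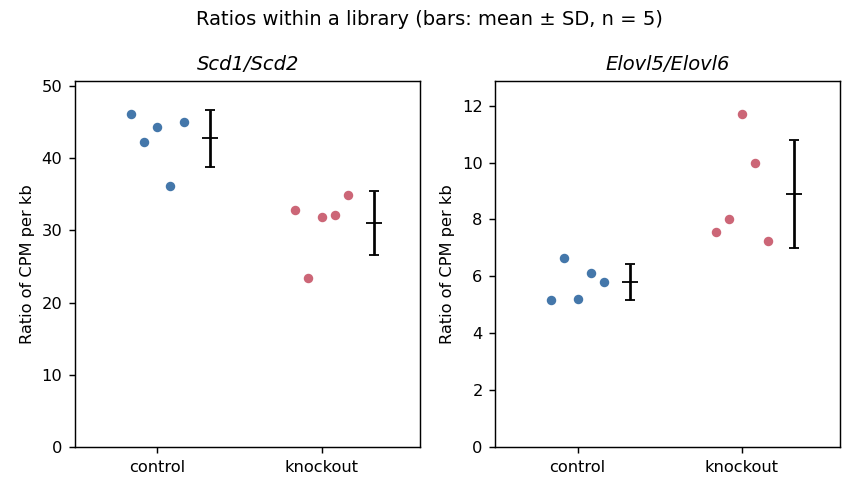
Ratio of CPM per kilobase (vertical, from 0) of Scd1 to Scd2 and of Elovl5 to Elovl6 in each library, ordered 1 to 5 from left to right, with mean ± SD. Control ratios of Scd1 to Scd2 run from 36.2 to 46.1 and knockout ratios from 23.4 to 34.9, and the Elovl5 to Elovl6 ratio runs from 5.18 to 6.66 and from 7.23 to 11.7.

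Libraries differed in how the members moved together. Knockout 5 held the highest knockout level of 5 members, Elovl5, Elovl6, Fads3, Scd1 and Scd2. Knockout 3 held the lowest knockout level of 5, Elovl6, Elovl7, Fads2, Scd1 and Scd2. Among controls, control 4 was lowest for Elovl5, Elovl6, Scd1 and Scd2. The coefficient of variation was 14.9% in controls and 21.4% in knockouts for Elovl6, 14.4% and 13% for Fads2, and 13.1% and 19.5% for Scd1. It was 3.91% and 8.16% for Fads3.

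The rest of the route was read from 12 lists holding 94 genes beside the members. Of 86 tested, 10 were higher, 2 lower and 74 did not pass. The share changed in either direction was near the 12.9% among all tested genes. By direction the calls leaned to higher, whereas among all tested genes 5.84% were higher and 7.05% lower. That lean was not tested, and the lists were chosen with earlier results of these data known. The counts by list below describe single genes. Leaving out 1 library gave 5 to 17 higher and 0 to 2 lower. Among the elongases outside the 10 members, Elovl3, the elongase of brown fat and sebaceous gland, rose, with 1.58 to 2.93 CPM among controls against 4.94 to 19.6 among knockouts (log2 fold change 2.25, SE 0.380, edgeR adjusted p = 0.0063). Elovl2 was not tested, at 0 to 6 reads per library. Of the desaturases, Degs1, which completes ceramide, rose by a log2 fold change of 0.36 (edgeR adjusted p = 0.029), though its call was lost in 6 of 10 fits without 1 library (adjusted p up to 0.083). Degs2, for phytoceramide, stood at 0.10 (adjusted p = 0.875) and Fads6 at -0.27 (adjusted p = 0.258).

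The enzymes that share the elongation cycle with the Elovl proteins had 1 of 6 higher, 0 lower and 5 not passing, with a median log2 fold change of 0.20. Tecr, the reductase of the last step, rose without overlap, with 113 to 130 CPM among controls against 146 to 199 among knockouts (log2 fold change 0.46, SE 0.0791, edgeR adjusted p = 0.0066), and its call held whichever library was left out. Hsd17b12, the reductase of the second step, stood at 0.27 (adjusted p = 0.140). Of 6 genes of electron supply, 1 was higher, 0 lower and 5 did not pass. Cyb5b, a cytochrome b5, rose by 0.38 (adjusted p = 0.025), lost in 5 of 10 fits (adjusted p up to 0.076). Cyb5a, the other cytochrome b5 of that list, did not pass (log2 fold change 0.07, edgeR adjusted p = 0.593).

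Upstream, fatty acid synthesis had 1 higher, 1 lower and 7 not passing of 9. Fasn, the synthase that makes palmitate, rose from 1406 ± 150 to 1940 ± 406 CPM (log2 fold change 0.46, edgeR adjusted p = 0.039), lost in 8 of 10 fits (adjusted p up to 0.099). Thrsp, a lipogenic accessory factor, fell (log2 fold change -0.71, adjusted p = 0.037), lost in 6 of 10 fits (adjusted p up to 0.104). Acaca, the carboxylase before Fasn, stood at -0.03 (adjusted p = 0.870). Of 14 genes of SREBP and ChREBP control, 0 were higher and 0 lower by edgeR, and 1 had an unadjusted p below 0.05. There Srebf1, for the SREBP of fatty acid genes, stood at 0.09 (adjusted p = 0.532), Insig1 at 0.32 (adjusted p = 0.173) and Mlxipl, for ChREBP, at -0.04 (adjusted p = 0.819). The sterol targets of SREBP had 3 of 9 higher and 0 lower, with a median log2 fold change of 0.26. They were Lss at 0.53 (adjusted p = 0.0051), Cyp51 at 0.50 (adjusted p = 0.011) and Idi1 at 0.44 (adjusted p = 0.012), enzymes of cholesterol synthesis, each called whichever library was left out.

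Downstream, of 11 genes that use unsaturated acyl chains, 10 did not pass, 0 were lower and 1 was higher. It was Dgat2, a triglyceride synthase, at 0.32 (edgeR adjusted p = 0.034, lost in 6 of 10 fits, up to 0.098), and Lpcat3, which puts polyunsaturated chains into phospholipids, stood at 0.01 (adjusted p = 0.975). Ceramide synthases had 1 of 4 lower, Cers4 at -0.24 (adjusted p = 0.034, lost in 8 of 10 fits, up to 0.083), and 0 higher. Of 7 peroxisomal genes, Pex5, an import receptor, was higher at 0.27 (adjusted p = 0.039, lost in 7 of 10 fits, up to 0.097) and 0 were lower. None of 9 eicosanoid enzymes and of 7 acyl-CoA synthetases passed in edgeR, where 1 and 2 had an unadjusted p below 0.05. Degs1, Cyb5b, Fasn, Thrsp, Dgat2, Cers4 and Pex5 each lost the call without control 1 and without control 2. Beyond these, the call was lost without control 3 for Fasn, Thrsp, Cers4 and Pex5. Without control 4 it was lost for each but Thrsp, and without control 5 for Fasn. It was lost without knockout 1 for Cers4, without knockout 2 for each but Thrsp and without knockout 3 for each but Cyb5b. Without knockout 4 it was lost for Thrsp and Cers4, and without knockout 5 for each but Cers4. Calls over all genes also fell, from 2053 to 560, 537 and 903 without control 1, 2 and 4, and rose to 3094 without control 5. Lost calls without control 1, 2 or 4 thus came with fewer calls over all genes. Fasn lost its call without control 5 and Cers4 without knockout 1, where calls over all genes rose to 3094 and 2273. Without control 3 the number over all genes was 1710.

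**Figure D4:**
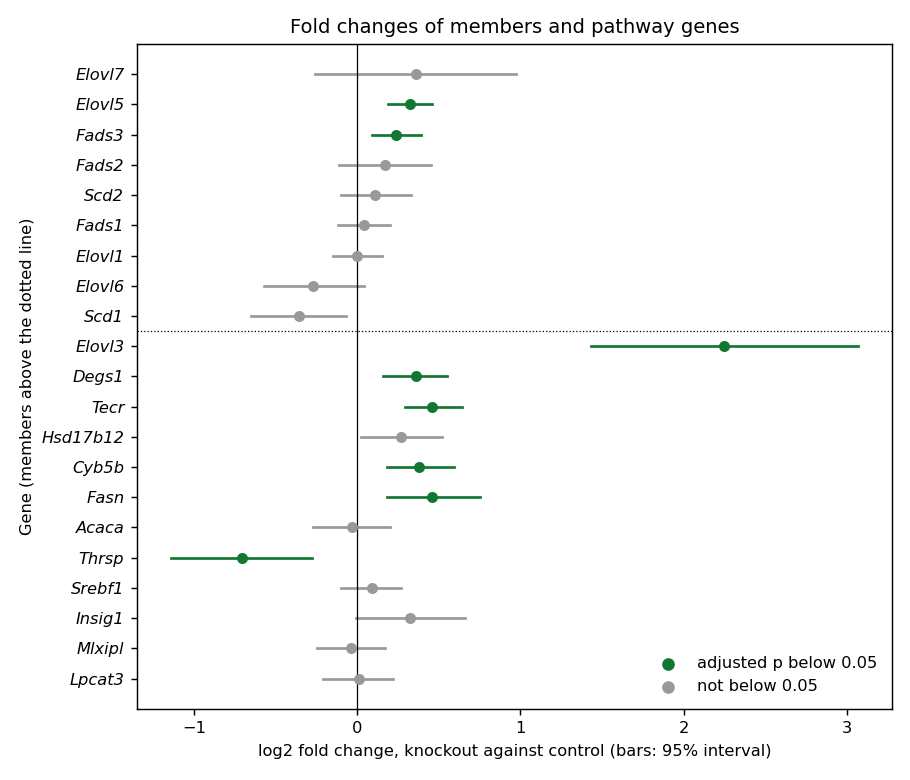
Log2 fold change, knockout against control (horizontal), with its 95% interval, for the 9 tested members above the dotted line and 12 pathway genes below it. Green marks an adjusted p below 0.05, which Elovl5 at 0.32 and Fads3 at 0.24 reach among members, and the interval of Scd1 lies below 0 and that of Elovl6 reaches 0.04.

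Other measures moved with genotype beside these values. Of 10 endothelial markers 8 were lower and 0 higher, and their summed level was 1027 to 1291 CPM (controls) and 837 to 982 (knockouts). Of 7 tested Schwann cell markers, 4 were lower and 0 higher (93.0 to 120 and 73.6 to 111 CPM), and Sox10 was at 0 in some libraries. Of T cell markers 6 of 10 were higher (15.4 to 31.3 and 22.7 to 150 CPM) and B cell markers in 4 of 8 (10.5 to 26.9 and 17.8 to 384 CPM), with knockout 1 highest for each. Macrophage, progenitor, muscle and proliferation markers had 0 of 8, 0 of 7, 0 of 7 and 0 of 8 called by edgeR. Its unadjusted p was below 0.05 for 0, 1, 0 and 6 of them. Macrophage sums were 2158 to 2738 CPM in controls and 2218 to 2553 in knockouts, and progenitor sums 2372 to 2871 and 2373 to 2911. Muscle sums were 23.3 to 525 and 39.1 to 706 CPM, and proliferation sums did not overlap, at 152 to 200 and 204 to 233. Log2 fold changes were above 0 for 8 of 8 proliferation, 7 of 7 muscle, 1 of 8 macrophage and 1 of 7 progenitor markers. Over all tested genes, 50% were above 0. Of epithelial markers, Krt5, Krt14, Krt8, Krt18, Epcam and Krt15 were at 0 in some libraries and only Mgst1, which fat itself expresses, was tested. The part of these cell types in the elongase and desaturase values was not tested. Without both control 5 and knockout 1, Elovl5 and Fads3 were again the members called (log2 fold change 0.35 and 0.28, adjusted p = 0.0038 and 0.020).

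A score of intron-type transcripts, the mean log2 CPM of 786 tested genes annotated as TEC or sense intronic, was 0.38 to 1.27 among controls and 0.06 to 0.46 among knockouts. With that score as a covariate, 0 members passed, against 49 of all genes. Elovl5 then stood at 0.26 (edgeR adjusted p = 0.382), Fads3 at 0.14 (adjusted p = 0.632), Scd1 at -0.65 (adjusted p = 0.258) and Elovl6 at -0.55 (adjusted p = 0.399). None of the 12 pathway genes that changed passed in that fit, though some fold changes stayed near their size without the score, such as 2.02 for Elovl3, 0.46 for Lss, 0.36 for Dgat2 and 0.28 for Pex5, while others were smaller, such as 0.32 for Tecr and 0.14 for Degs1. The score moves with genotype, so its part in the result and that of genotype cannot be told apart.

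**Figure D5:**
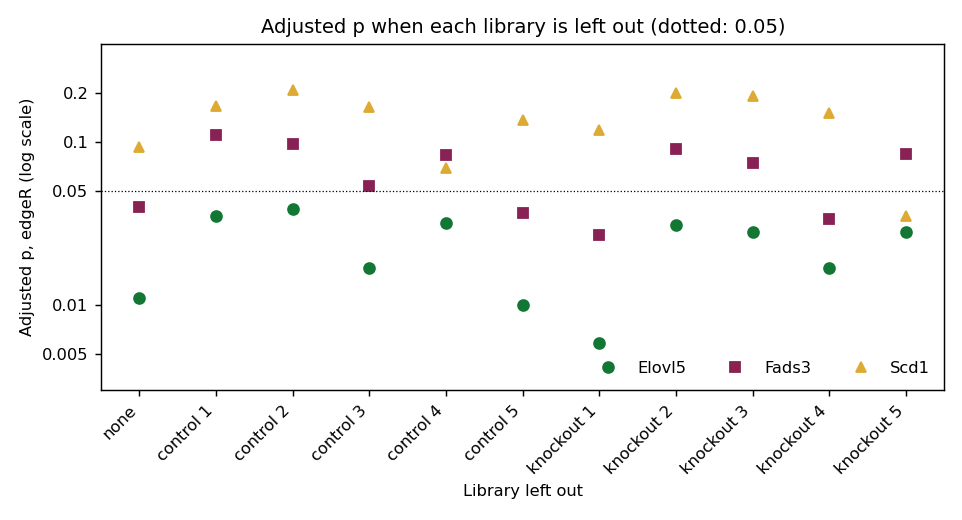
Adjusted p of edgeR (vertical, log scale) for Elovl5, Fads3 and Scd1 with all libraries and with each library left out (horizontal). Elovl5 stays under the dotted line at 0.05 in each fit, with a highest value of 0.039, Fads3 lies under it in 3 of 10 such fits, and Scd1 does so without knockout 5.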

How the data were processed

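RNA was made into stranded libraries after ribosomal depletion, per the labels' protocols. The authors deposited raw counts per gene. Per the submitters' processing notes, the tools were featureCounts 1.5.1, STAR 2.5.2b and DESeq2 1.16.0, with GRCm38. Not given in the sources used here are the strand setting and how multiply matching reads were handled.

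Of 52636 identifiers, 52489 had a position in GENCODE M21 on GRCm38. Genes kept by filterByExpr (15927) were scaled with TMM and compared by edgeR 4.0.16 (quasi-likelihood, two-sided) in R 4.3.3, with no covariate and Benjamini-Hochberg adjustment over all of them. DESeq2 1.42.0, limma 3.58.1 (voom) and sva 3.50.0 gave alternatives. Levels per kilobase divide by merged exon length. Pairs of libraries in a group differed by more than sampling noise (chi-square per degree of freedom 6.57 to 26.2), so none was treated as a library deposited more than once. This does not show that they came from separate mice. The fits were tested on simulated data with 200 genes changed. There edgeR recovered 27% of them at 1.3-fold, 71% at 1.5-fold and 95.5% at 2-fold, with 1, 9 and 7 false calls. The changed genes were drawn only from genes with more reads than Elovl7, so these rates do not cover it. Spread followed the trend over genes of like level, not each gene's own. The tested members' fold changes ran from 0.779 for Scd1 to 1.28 for Elovl7, so a member that did not pass is not shown to be unchanged. The members and lists were chosen with earlier results of these data known. All 10 members are named, with the relatives Elovl2, Elovl3, Scd3, Scd4, Degs1, Degs2 and Fads6. Each pathway list adds up to 4 changed genes of smallest p, and Srebf1, Insig1, Mlxipl, Fasn, Acaca and Lpcat3 are given in any case. Hsd17b12 and Cyb5a were added after their values were seen. Promoter sequences are from RefSeq on GRCm38.p6.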

Additional observations from a re-analysis of the deposited data

Results flagged for a closer look

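Within the 5 knockouts, the Scd1 level of knockout 5, 20651 CPM, stood apart from the other 4, which ran from 13261 to 15204 CPM. The gap to its nearest neighbour was 0.737 of the group's range, above the limit of 0.71 that Dixon's test sets for 5 samples. Of 20 groups of values examined, chance flags about 1.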

How the results depend on the processing

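No paired analysis was possible because the labels give no replicate numbers that the groups share. With all libraries, 2053 genes changed, and the number was 3605 by limma-voom, 49 with the intron-type score as a covariate and 3774 without both control 5 and knockout 1. It ran from 537 to 3094 when 1 library was left out. The settings with the score and with 2 libraries left out were chosen after seeing the data. The count of changed members, 2 higher and 0 lower, was 1 higher with no filter on low counts (Fads3 at an adjusted p of 0.065) and 0 with the score, and DESeq2 and limma-voom added 1 lower, Scd1. Leaving out 1 library gave 1 to 2 changed members, 1 to 2 higher and 0 to 1 lower, and 2 to 3 without overlap. Elovl5, Elovl6, Elovl7, Fads2, Fads3 and Scd1 kept their direction in all fits run. Elovl1 changed sign around 0, at 0 by DESeq2 and with RLE factors, 0.03 with no filter, 0.11 with the score and -0.02 to 0.04 without 1 library. Fads1 ran from -0.01 to 0.08 without 1 library, and Scd2 stood at -0.09 with the score. The cause was not tested. Other scaling factors moved the median fold change by at most 0.012 on the log2 scale. Depth limits Elovl4 and Elovl7, with at most 18 reads in a library.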
